A study of Mus musculus with 16 samples.

Results

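The ErbB receptors and the EGF-family ligands were examined in primary mammary tumors of mice that carry the polyoma middle T antigen (PyMT), with and without a gene trap in *Resf1*. The members were 10 named genes, 4 receptors (*Egfr*, *Erbb2*, *Erbb3* and *Erbb4*) and 6 ligands (*Areg*, *Ereg*, *Hbegf*, *Tgfa*, *Btc* and *Nrg1*), found by matching the Ensembl identifiers of the table to mouse symbols. Of these, 9 had values among the 23609 gene IDs, and all 9 had a mean of at least 10, the filter used for the tests. *Ereg*, which encodes epiregulin, was not analysed here.

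Total RNA of tumors from wildtype littermates with PyMT was compared with total RNA of tumors from compound animals with PyMT that were heterozygous for the gene trap (Resf1 +/-). PyMT is driven by the MMTV promoter, which is active in the mammary epithelium, in FVB animals, and the gene trap is a lentiviral insertion of an EGFP/Cre cassette in the first exon of *Resf1* on a C57BL/6 background, so every tumor came from an F1 animal with PyMT. The ages of the animals are not given in the sources used here. The labels describe 8 tumors per group, and values of 5 wildtype and 5 gene trap tumors could be matched to them. The values are estimated counts per gene that the authors normalized between tumors by the median ratio, called normalized counts below, and how deeply each tumor was sequenced is not known.

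ErbB receptors are receptor tyrosine kinases that signal as pairs. EGFR, ERBB3 and ERBB4 bind ligands of the EGF family, ERBB2 binds none and serves as the favored partner, and ERBB3 has a weak kinase and signals through its partner. Amphiregulin (*Areg*) and TGF-alpha (*Tgfa*) bind EGFR, HB-EGF (*Hbegf*) and betacellulin (*Btc*) bind EGFR and ERBB4, and neuregulin 1 (*Nrg1*) binds ERBB3 and ERBB4. In the normal mammary gland, amphiregulin is made by hormone-sensing luminal cells downstream of the estrogen receptor and drives duct growth, and PyMT itself recruits several of the signaling proteins that ErbB receptors use.

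*Areg* was the member that differed most between tumors, and the stretch of DNA before its start is shown here beside that of its neighbor *Btc*. In the RefSeq gene order of chromosome 5, *Epgn*, *Ereg*, *Areg* and *Btc* follow each other with no other protein-coding gene between them, and all encode EGF-family ligands. RefSeq promoter sequences (build GRCm38.p6, 250 bases before to 50 after the start of the gene) were found for 6 of the 9 members. The 250 bases before the start are printed from 5′ to 3′, for *Areg* from the plus strand at chr5:91139349-91139598 and for *Btc* from the minus strand at chr5:91402995-91403244. Capitals mark matches to the cAMP response element TGACGTCA and to the TATA box TATAAA, both searched on both strands.
Areg: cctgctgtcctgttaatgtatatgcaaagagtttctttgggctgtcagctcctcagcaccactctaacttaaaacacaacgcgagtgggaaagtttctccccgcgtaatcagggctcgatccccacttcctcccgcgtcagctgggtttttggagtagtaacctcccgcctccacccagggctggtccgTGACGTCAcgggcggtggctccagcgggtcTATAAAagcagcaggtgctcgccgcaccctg
Btc: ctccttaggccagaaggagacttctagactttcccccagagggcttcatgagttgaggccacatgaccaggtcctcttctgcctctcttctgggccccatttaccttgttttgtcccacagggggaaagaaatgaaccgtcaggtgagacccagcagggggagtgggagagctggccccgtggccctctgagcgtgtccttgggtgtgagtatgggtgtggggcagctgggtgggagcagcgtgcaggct
In *Areg* the cAMP response element lay at -61 to -54 and the TATA box at -31 to -26, counted so that the base before the start is -1. No other member with a promoter sequence held either motif in this window. Over all 32851 promoters of the same length, 1.79% held the cAMP response element, 13.6% held the TATA box and 56 (0.17%) held both. A match is a description of the letters and not of binding.

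Before the members are described, some tumors are named that stood apart over all genes. In gene trap replicate 2, 863 of the 21034 tested genes lay more than 2-fold below their level in every other tumor, where each of the other tumors had 8 to 40 such genes. It also held the highest value for 22.4% of the tested genes, against 6.51% to 10.3% elsewhere. The epithelial markers (*Epcam*, *Cdh1*, keratins and others, 8 genes) summed to between 86716 and 118619 normalized counts, with overlapping groups. The values used held 0 zeros for any gene, so a cell type marker above 0 does not show that its cell type was present. The gene trap was checked on *Resf1* itself, with 4099 ± 399.7 normalized counts in wildtype tumors and 3516 ± 361.2 in those with the gene trap (SD, n = 5). Its change was -0.22 on the log2 scale (limma, standard error 0.09, unadjusted p = 0.0313, adjusted p = 0.9997), with overlapping groups and an exact permutation p of 0.0635, where the smallest possible p is 0.00794.

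No member passed the test between gene trap and wildtype tumors. With limma and Benjamini-Hochberg adjustment over all tested genes, 0 of 9 members had an adjusted p under 0.05, where 0.0% of all tested genes did, and 0 of 9 had an unadjusted p under 0.05, where 2.28% (479 genes) of all tested genes did, 1.32% higher and 0.956% lower in gene trap tumors. The member nearest to that threshold was *Tgfa*, which was lower in gene trap tumors with an unadjusted p of 0.0763 in limma. Over the members the log2 fold change had a median of 0.015, against 0.005 over all genes that were tested. Regardless of sign, the median change was 0.09 for the members and 0.10 for all those genes. The groups overlapped for every member, while 0.528% of the tested genes had groups that did not overlap. The adjusted p in limma was 0.9997 for each member, and the values below give each level in every tumor, the fold change and its interval.

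**Figure D1:**
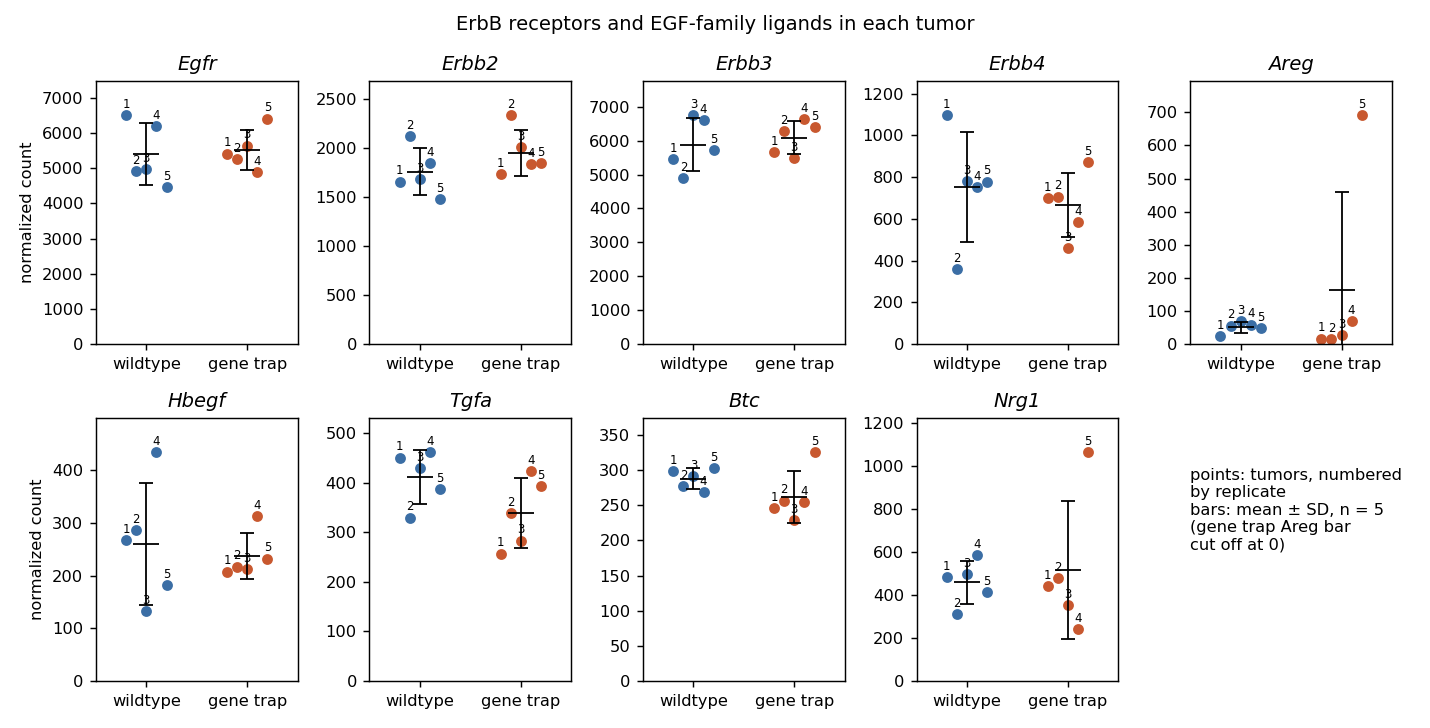
Normalized counts of the 9 members (vertical axis, from 0, with its own scale in each panel) in the 5 wildtype and 5 gene trap tumors (points, numbered by replicate), with the mean and SD of each group as bars. The groups overlapped in every panel, and gene trap replicate 5 stood above all other tumors for *Areg* (691.0), *Btc* (325.7) and *Nrg1* (1065).

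Among the receptors, *Egfr* (ENSMUSG00000020122, chromosome 11), the receptor of amphiregulin and TGF-alpha, had normalized counts of 6498, 4923, 4974, 6184 and 4452 in wildtype replicates 1 to 5 and of 5409, 5260, 5639, 4881 and 6406 in gene trap replicates 1 to 5. All gene trap tumors lay within the wildtype range. The difference was 0.04 on the log2 scale (95% interval -0.21 to 0.28, limma), with an exact permutation p of 0.762. The means of the groups were 5406 ± 884.3 and 5519 ± 567.2 (SD, n = 5).

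*Erbb2* (ENSMUSG00000062312, chromosome 11), the receptor without a ligand of its own, had normalized counts of 1655, 2119, 1680, 1846 and 1479 in wildtype and of 1731, 2329, 2006, 1835 and 1844 in gene trap tumors. Gene trap replicate 2 was the highest of all tumors and wildtype replicate 5 the lowest. *Erbb2* had a log2 fold change of 0.15 (95% interval -0.08 to 0.39, limma), with an exact permutation p of 0.23. Without gene trap replicate 2 it was 0.09 (limma, unadjusted p = 0.395).

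*Erbb3* (ENSMUSG00000018166, chromosome 10), the neuregulin receptor with the weak kinase, had the narrowest range of all members. Its normalized counts were 5465, 4885, 6744, 6606 and 5715 in wildtype and 5656, 6283, 5491, 6625 and 6397 in gene trap tumors, which all lay within the wildtype range. The highest tumor was 1.38-fold above the lowest. On the log2 scale the groups differed by 0.06 (95% interval -0.16 to 0.27, limma), with an exact permutation p of 0.627.

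*Erbb4* (ENSMUSG00000062209, chromosome 1), the receptor that in the normal gland takes part in milk production, was the most variable receptor. Its normalized counts were 1096, 358.3, 782.1, 752.4 and 778.3 in wildtype and 698.1, 707.2, 461.1, 586.1 and 873.4 in gene trap tumors. Wildtype replicates 1 and 2 were the highest and the lowest of all tumors, and the gene trap tumors lay between them. For *Erbb4* the log2 fold change was -0.13 (95% interval -0.69 to 0.44, limma), with an exact permutation p of 0.714.

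Among the ligands, *Areg* (ENSMUSG00000029378, chromosome 5) had normalized counts of 24.6, 56.2, 69.1, 59.5 and 49.5 in wildtype and of 17.2, 15.2, 28.5, 70.2 and 691.0 in gene trap tumors. Gene trap replicate 5 was 9.73-fold above the next tumor after addition of 1, gene trap replicates 1 and 2 were the lowest of all tumors, and the gene trap median of 28.5 lay near the lowest wildtype tumor. *Areg* had a log2 fold change of 0.09 with a 95% interval from -1.76 to 1.94 (limma), the widest of all members, and the exact permutation p was 0.944. Without gene trap replicate 5 the log2 fold change was -0.83 (limma, unadjusted p = 0.0854, adjusted p = 0.9898), and without gene trap replicate 2 it was 0.52 (limma, unadjusted p = 0.555).

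*Nrg1* (ENSMUSG00000062991, chromosome 8), the ligand of ERBB3 and ERBB4, had normalized counts of 484.8, 311.4, 498.4, 583.8 and 412.8 in wildtype and of 440.6, 479.6, 351.4, 241.5 and 1065 in gene trap tumors. The gene trap tumors held both the highest value, in replicate 5, and the lowest, in replicate 4. *Nrg1* had a log2 fold change of 0.02 (95% interval -0.68 to 0.71, limma), with an exact permutation p of 0.984. It was -0.29 without gene trap replicate 5 (limma, unadjusted p = 0.216) and -0.01 without gene trap replicate 2.

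*Btc* (ENSMUSG00000082361, chromosome 5), the neighbor of *Areg*, had normalized counts of 298.7, 277.1, 291.8, 269.0 and 302.9 in wildtype and of 246.0, 256.6, 228.5, 254.2 and 325.7 in gene trap tumors. Of the gene trap tumors, 4 lay below the lowest wildtype tumor and replicate 5 lay above the highest. *Btc* had a log2 fold change of -0.14 (95% interval -0.39 to 0.10, limma), with an exact permutation p of 0.151. Without gene trap replicate 5 it was -0.22 (limma, unadjusted p = 0.0474, adjusted p = 0.9898).

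*Tgfa* (ENSMUSG00000029999, chromosome 6), a ligand of EGFR, had normalized counts of 451.4, 330.1, 430.2, 462.4 and 388.1 in wildtype and of 257.4, 338.8, 283.3, 424.1 and 393.9 in gene trap tumors. Gene trap replicates 1 and 3 lay below every wildtype tumor and the other gene trap tumors lay within the wildtype range. The means were 412.5 ± 54.1 and 339.5 ± 70.7 (SD, n = 5), and the log2 fold change was -0.30 (95% interval -0.63 to 0.04, limma), with an exact permutation p of 0.119. The direction was the same under all alternatives tried, and the unadjusted p in limma lay between 0.0273 and 0.193 when single tumors were left out.

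*Hbegf* (ENSMUSG00000024486, chromosome 18), which encodes a membrane-bound ligand that ADAM proteases release, had normalized counts of 267.0, 286.1, 132.4, 434.4 and 181.6 in wildtype and of 207.6, 217.0, 212.6, 313.4 and 232.0 in gene trap tumors. Wildtype tumors held both the highest and the lowest value, and all gene trap tumors lay between them. *Hbegf* had a log2 fold change of -0.04 (95% interval -0.62 to 0.54, limma), with an exact permutation p of 0.897.

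**Figure D2:**
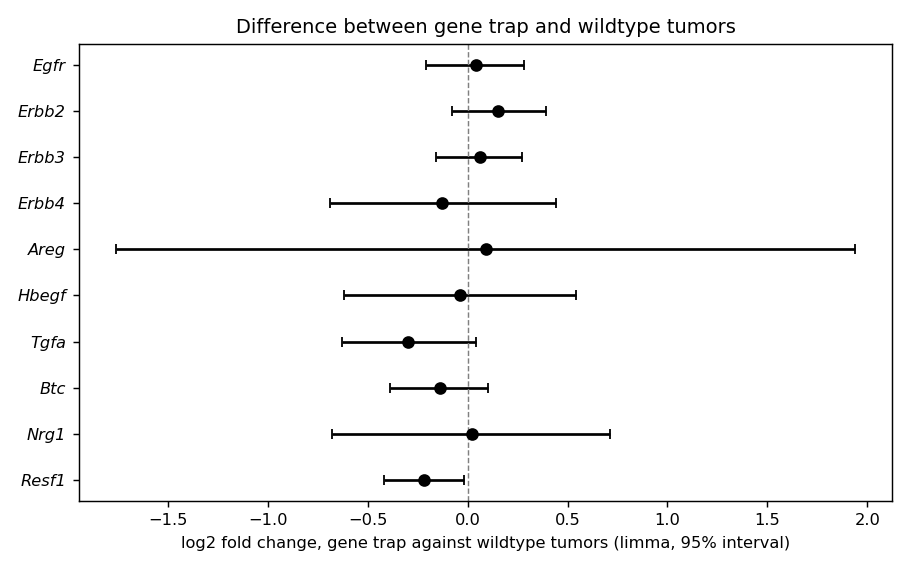
Log2 fold change of gene trap against wildtype tumors (horizontal axis) for the 9 members and *Resf1*, with the 95% interval from limma as bars and n = 5 tumors per group. The intervals of all 9 members include 0, from the narrow interval of *Erbb3* (-0.16 to 0.27) to the wide interval of *Areg* (-1.76 to 1.94), and that of *Resf1* lies below 0.

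To compare the levels of different genes, normalized counts were divided by the length of the longest transcript of the gene in GENCODE. *Erbb3* was the highest member, with 995.1 ± 104.2 normalized counts per kilobase (SD over 10 tumors), followed by *Egfr* with 535.1 ± 68.9 and *Erbb2* with 369.6 ± 49.1. No tumor's *Egfr* reached the lowest *Erbb3*, while the ranges of *Egfr* and *Erbb2* overlapped. *Erbb3* exceeded 90.5% of the 20536 tested genes with a length, *Egfr* exceeded 80.0% and *Erbb2* exceeded 71.6%. With this length the ligands and *Erbb4* lay lower, with means per kilobase of 89.9 for *Nrg1*, 89.0 for *Areg* (median 43.5), 86.0 for *Hbegf*, 83.1 for *Tgfa*, 68.3 for *Btc* and 58.9 for *Erbb4*. Each of these 6 overlapped its neighbors in that order.

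The levels and their order depended on the length used. *Egfr* has 5 annotated transcripts, most of them short, and the median length of all its transcripts is 716 bases against 10208 for the longest. With the median length *Egfr* came first, at 7629 per kilobase, and with the median of the transcripts of the basic set that have a complete coding sequence it was second at 830.7 and overlapped *Erbb3*. With the median length *Erbb4* moved from last to the fourth place, at 323.0 per kilobase, and overlapped *Erbb2*, while *Tgfa* was at 253.9 and *Nrg1* at 232.9, and *Areg* came last at 89.0. With the basic set *Nrg1* was at 184.1 and *Erbb4* stayed last at 59.6. *Erbb3* and *Areg* each have only 1 annotated transcript, so their levels are the same under each length.

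Of the receptor RNA per kilobase of the longest transcript, *Erbb3* made up a median of 50.2%, *Egfr* 27.9%, *Erbb2* 17.8% and *Erbb4* 3.01% over the 10 tumors. These shares overlapped between the groups, with exact permutation p from 0.413 for *Erbb4* to 0.913 for *Erbb3*. With the median length of all transcripts *Egfr* led instead, with a median share of 82.2% against 10.3% for *Erbb3*, and with the basic set *Erbb3* had 43.7% and *Egfr* 37.6%. Shares were also taken of the summed RNA of the 5 measured member ligands, per kilobase of the longest transcript. The 4 other measured EGF-family ligands were not part of this sum. In gene trap replicate 5 they had 1433 summed normalized counts, against 2707 for the member ligands. Of the member ligand RNA, *Areg* made up 56.1% in gene trap replicate 5 and between 3.98% and 15.7% in the other tumors. With the median length of all transcripts these shares were 35.3% and 1.80% to 7.98%. With the longest transcript *Tgfa* made up 19.9% to 26.5% and *Nrg1* 12.1% to 28.5% in those other tumors.

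**Figure D3:**
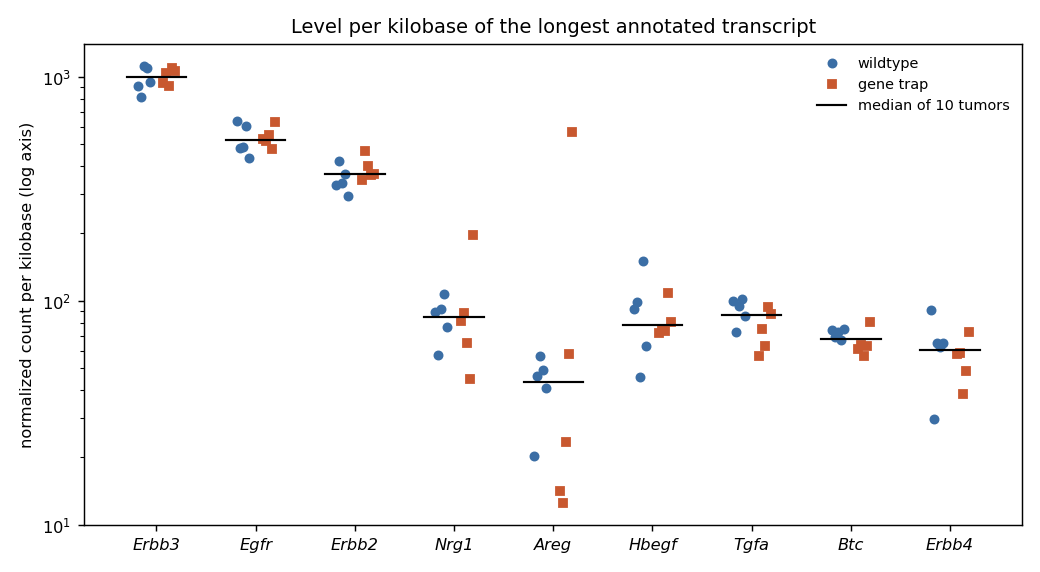
Normalized counts per kilobase of the longest transcript (vertical log axis) of the 9 members in wildtype (circles) and gene trap tumors (squares), with the median of the 10 tumors as a line. The values of *Erbb3*, *Egfr* and *Erbb2* lay between 295.2 and 1121, and the other 6 members reached at most 196.6, except *Areg* in gene trap replicate 5 (568.7).

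The members differed in how much they varied among tumors of the same group. The SD of the log2 values within groups was 1.63 for *Areg*, which exceeded 99.5% of the tested genes with a mean level within 2-fold of its own. *Nrg1* had an SD of 0.61, above 96.5% of the genes of like level, *Erbb4* had 0.48, above 94.8%, and *Hbegf* had 0.49, above 89.2%. The receptors *Egfr*, *Erbb2* and *Erbb3* had SDs of 0.19, 0.18 and 0.16, above 72.8%, 66.6% and 60.4% of genes of like level, and *Tgfa* had 0.26, above 63.5%. *Btc* was the steadiest for its level, with an SD of 0.14, above 14.4%. Without gene trap replicate 5 the SD of *Areg* was 0.77.

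Gene trap replicate 5 held the highest level of *Areg*, *Btc* and *Nrg1* and the second highest of *Egfr* and *Erbb4*. By the fold above the next tumor, *Areg* ranked 2 of the 21034 tested genes in this tumor, behind *Pcp4* (479.4 against at most 23.1 elsewhere). In this tumor 102 tested genes (0.485%) lay more than 1.5-fold above every other tumor, and 14 lay more than 4-fold above. All 6 markers of hormone-sensing luminal cells were also highest in this tumor, among them *Pgr*, the progesterone receptor, with 1105 normalized counts against 77.6 to 257.4 elsewhere, and *Prlr*, the prolactin receptor, with 7345 against at most 5307. The estrogen receptor gene *Esr1* had 689.7 against at most 673.1, and *Greb1*, an estrogen-induced gene, had 142.7 against at most 99.1. The summed level of the 6 markers was 9610 in gene trap replicate 5 and between 4639 and 6320 in the other tumors. *Prlr* made up most of this sum. Their part in the level of *Areg* was not tested, and in bulk tumor RNA more cells of a type cannot be told apart from more RNA per cell. *Pcp4* and the marker genes are named outside the rule for named genes, after their values were seen.

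The genes beside *Erbb2* on chromosome 11, which are amplified together with it in HER2-positive human breast cancer, were among the 6 pathway lists described below. *Erbb2* itself was highest in gene trap replicate 2. Of the 5 measured neighbors, 4 were highest in this tumor. *Mien1* had 3678 normalized counts against 1811 to 2650 elsewhere, *Pgap3* 811.1 against 477.6 to 668.0, *Grb7* 873.9 against 508.9 to 769.7 and *Stard3* 1809 against 1045 to 1707. The fifth, *Tcap*, a muscle gene, was highest in wildtype replicate 5 (576.0), where the skeletal muscle markers were highest as well. Between the groups 0 of the 5 neighbors passed an adjusted or unadjusted p under 0.05 in limma, and their median log2 fold change was 0.17, against 0.005 over all tested genes. Gene trap replicate 2 held the highest value for 22.4% of all tested genes, and DNA copy number was not measured here. *Mien1*, *Pgap3* and *Tcap* are named outside the rule for named genes, after their values were seen.

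Pathway genes around the receptors were examined as lists. None of the 74 genes of the 6 lists had an adjusted p under 0.05 in limma, and 2 (2.7%) had an unadjusted p under 0.05, a share near the 2.28% of all tested genes. Of the other EGF-family ligands, 2 were higher and 2 lower with the gene trap, and their median was -0.12 on the log2 scale. *Nrg4*, a ligand of ERBB4, had the smallest p of these, with 177.0 ± 16.8 and 147.8 ± 19.6 normalized counts (SD, n = 5), a log2 fold change of -0.26 (limma, unadjusted p = 0.0633) and an exact permutation p of 0.0317. *Epgn*, which encodes epigen, had a log2 fold change of -0.38 (limma, unadjusted p = 0.168).

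Of the 10 proteases and iRhoms that release or control EGF-family ligands, 5 were higher and 5 lower, with a median log2 fold change of 0.02. *Adam15* and *Rhbdf1* had the smallest p values, each with a log2 fold change of 0.11 (limma, unadjusted p = 0.31 and 0.315). Of the 26 adaptors and kinases downstream of the receptors, 10 were higher and 16 lower, with a median of -0.01. *Gab1*, an adaptor for PI3 kinase signaling, had a log2 fold change of -0.16 (limma, unadjusted p = 0.106) and *Shc1*, an adaptor that PyMT also binds, had 0.13 (limma, unadjusted p = 0.14).

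Of the 13 negative regulators of the receptors, 9 were higher and 4 lower, with a median log2 fold change of 0.02. The p was smallest for *Lrig1*, a membrane protein that promotes loss of ErbB receptors, with 3039 ± 350.5 and 2657 ± 208.4 normalized counts (SD, n = 5) and a log2 fold change of -0.19 (limma, unadjusted p = 0.0655). *Errfi1* encodes MIG6, a feedback inhibitor of EGFR that is induced by its signaling. Its normalized counts were 13210, 6970, 4129, 19836 and 6523 in wildtype tumors and lay between 5020 and 6919 in gene trap tumors. Wildtype replicates 1 and 4 stood above all other tumors, and the log2 fold change was -0.56 (limma, unadjusted p = 0.119). It was -0.27 without wildtype replicate 4 (limma, unadjusted p = 0.324) and -0.83 without wildtype replicate 3, the lowest tumor (limma, unadjusted p = 0.0136).

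Of the 16 genes that ERK signaling is known to induce, 7 were higher and 9 lower with the gene trap, and their median log2 fold change was -0.02. The 2 with an unadjusted p under 0.05 were *Dusp5* and *Fos*. *Dusp5*, which encodes a nuclear phosphatase of ERK, had normalized counts of 1204, 825.7, 955.4, 1823 and 1001 in wildtype and of 734.3, 721.5, 759.8, 732.7 and 692.8 in gene trap tumors, so that the groups did not overlap. Its log2 fold change was -0.62 (limma, standard error 0.17, unadjusted p = 0.00372, adjusted p = 0.9997), and the exact permutation p of 0.00794 is the smallest possible. *Fos*, an immediate early gene, had 3134 ± 1409 and 1756 ± 477.8 normalized counts (SD, n = 5) and a log2 fold change of -0.77 (limma, unadjusted p = 0.0218, adjusted p = 0.9997). Without wildtype replicate 4 its log2 fold change was -0.55 (limma, unadjusted p = 0.0544), and without gene trap replicate 2 it was -0.58 (limma, unadjusted p = 0.0558).

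A pair of wildtype tumors stood above the rest for the ERK-induced genes. The summed level of the 16 genes was 41044 in wildtype replicate 1 and 43696 in wildtype replicate 4, and between 26705 and 33991 in all other tumors. Each of these 2 wildtype tumors was among the 2 highest tumors for 10 of the 16 genes. Wildtype replicate 4 also held the highest *Hbegf* and *Tgfa*, and wildtype replicate 1 held the highest *Egfr* and *Erbb4*. *Dusp6*, a cytoplasmic phosphatase of ERK, was named for this pattern after its values were seen, and had 8283 and 8332 normalized counts in wildtype replicates 1 and 4, 8178 in gene trap replicate 5 and 7294 in gene trap replicate 2, while the others had 4141 to 4948. Wildtype replicate 1, gene trap replicate 5 and wildtype replicate 4 were also the 3 tumors with the highest *Egfr*, in that order. Gene trap replicate 2 ranked only 6 for *Egfr*. Of the 16 ERK-induced genes, gene trap replicate 5 was highest for 0, among the 2 highest for 4 and lowest for 1, *Dusp5* (692.8). A relation between the members and the ERK-induced genes was not tested.

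**Figure D4:**
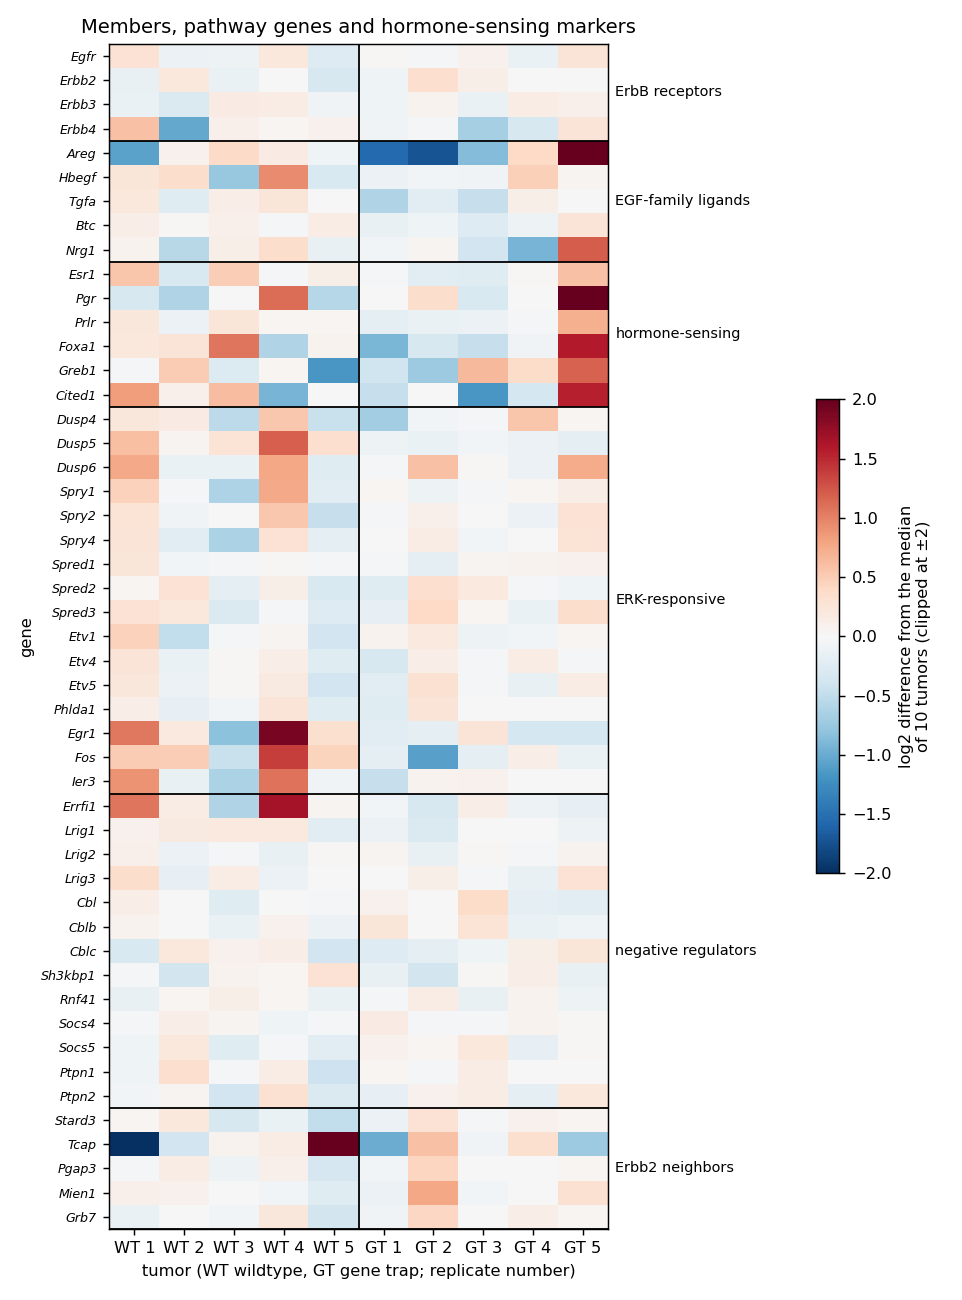
Log2 difference of each gene (rows) from its median over the 10 tumors (columns), clipped at 2 in either direction, for the members, the hormone-sensing markers, the ERK-induced genes, the negative regulators and the *Erbb2* neighbors. The hormone-sensing markers are highest in gene trap replicate 5 together with *Areg*, and *Errfi1* and several ERK-induced genes are highest in wildtype replicates 1 and 4.

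To see which members varied together, log2 values were compared across the 10 tumors after the mean of each group was removed. Of the 36 pairs of members, 0 had an adjusted p under 0.05 in the exact permutation test (smallest adjusted p = 0.258), and 4 had an unadjusted p under 0.05. Without gene trap replicate 5 only 1 pair had an unadjusted p under 0.05, and without removal of the group means 2 had. *Erbb3* and *Tgfa* had a Pearson r of 0.75 (exact permutation p = 0.00965) and a Spearman rho of 0.75 (exact permutation p = 0.0157), and r was 0.76 without the 2 tumors farthest from the median of *Erbb3*. *Erbb4* and *Nrg1*, a receptor and its ligand, had r = 0.62 (exact permutation p = 0.0179) and rho = 0.70 (exact permutation p = 0.0335). Their r was 0.64 without wildtype replicate 2 and gene trap replicate 3, the 2 tumors farthest from the median of *Erbb4*. Gene trap replicate 5, with the highest *Nrg1*, stayed in that value. With single tumors left out r was 0.59 to 0.69. *Egfr* and *Nrg1* had r = 0.63 (exact permutation p = 0.0215) and rho = 0.66 (exact permutation p = 0.0467), with r = 0.57 without the 2 farthest tumors. *Erbb4* and *Btc* had r = 0.56 (exact permutation p = 0.0328) and rho = 0.81 (exact permutation p = 0.00875), with r = 0.64 without the 2 tumors farthest from the median of *Erbb4*. With single tumors left out r was 0.45 to 0.75, lowest without gene trap replicate 3. The neighbors *Areg* and *Btc* had r = 0.75 (exact permutation p = 0.139) and rho = 0.28 (exact permutation p = 0.479), and this relation rested on gene trap replicate 5, since r was -0.18 without it and -0.02 without the 2 farthest tumors.

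For each member the 2 genes with the most similar pattern over the same 10 tumors were searched among 11797 genes with a mean of at least 100, as a description. They were *Mmp16* (r = 0.963) and *Palmd* (r = 0.947) for *Egfr*, *Ephb6* (r = 0.979) and *Atf6b* (r = 0.976) for *Erbb2*, and *Tmc4* (r = 0.947) and *Hmgn2* (r = 0.938) for *Erbb3*. For *Erbb4* they were *Tcaf1* (r = 0.959) and *Bcap31* (r = 0.951). Among the ligands they were *Kat8* and *Atg4a* (both r = 0.951) for *Areg*, *Tctn3* (r = 0.925) and *Srf* (r = 0.916) for *Hbegf*, and *Bcas2* (r = 0.902) and *Hectd3* (r = 0.901) for *Tgfa*. For *Btc* they were *Samd5* (r = 0.953) and *Mboat1* (r = 0.936), and for *Nrg1* they were *Rab38* (r = 0.911) and *Tef* (r = 0.910). With 10 tumors and this many genes, the highest r of each search is large by selection.

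The summed level of the basal and myoepithelial markers separated the groups, and its part in the values of the members was not tested. All 7 markers had a log2 fold change below 0 (median -0.36), and none had an adjusted p under 0.05 in limma. An unadjusted p under 0.05 was found for 2 of the 7, where 2.28% of all tested genes had one. The sum was 7242 to 9914 normalized counts in wildtype and 5426 to 7208 in gene trap tumors, so that the groups did not overlap (exact permutation test, p = 0.00794, the smallest possible). This p was not adjusted for the number of cell type lists examined. Of all tested single genes, 0.528% had groups that did not overlap. The summed levels of the hormone-sensing, milk protein, fibroblast, endothelial, macrophage, lymphocyte, adipocyte, skeletal muscle and nerve markers overlapped between the groups, with exact permutation p from 0.413 to 0.960.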

How the data were processed

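Libraries of total RNA (Trizol, TruSeq Stranded Total RNA) were made from mammary tumors. The submitters' processing notes name Partek, STAR 2.7.8a, DESeq2 and mm39. The counter and annotation are not given in the sources used here. The authors deposited a signal of estimated counts per gene, normalized by median ratio (0 zeros, column totals 31995100 to 42153600), so depth could not be recovered. Of 16 columns, 10 were matched to tumors by name and 6 were not used.

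After addition of 1 and log2 conversion, limma (3.58.1, in R 4.3.3) was fitted to the 21034 genes with a mean of at least 10, using empirical Bayes moderation, a mean-variance trend and Benjamini-Hochberg adjustment. Exact two-sided permutation tests used the 252 arrangements of 5 and 5 tumors, or 14400 arrangements within groups for the 36 member pairs (45 were planned with *Ereg*). Lengths came from GENCODE M21 (GRCm38), and no mm39 coordinates are given. The steps were tested on simulated data. For limma these had independent normal noise and no outlying tumor, so that test does not cover data with such a tumor. Equal replicate numbers in the groups belong to different mice. The labels do not say whether tumors of a group came from separate mice, so p-values measure the spread between these tumors. The members and lists were chosen with earlier results of these data known. Genes named are the members, *Resf1*, the list genes with an unadjusted p under 0.05 or the 2 smallest p of a list, and the 2 genes most like each member, and genes outside this rule are marked where they appear. The alternatives were other pseudocounts, filters, scalings, weights, no variance trend, a replicate block, other lengths and each tumor left out. Figures were drawn with matplotlib 3.10.9.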

Additional observations from a re-analysis of the deposited data

Results flagged for a closer look

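The highest tumor of a group stood far from the others, by the gap to its nearest neighbor divided by the range of the group, in 9 of 42 groups examined (21 measures in each genotype). The cutoff of this ratio was 0.71, and *Btc* and *Nrg1* in gene trap replicate 5 lay at 0.711. A rate of about 1 in 20 groups flagged by chance, or 2.1 here, assumes normally distributed values and independent groups. The values were counts without log2 conversion, and the groups share the same tumors. The 9 flags are therefore a description, and an excess over chance cannot be read from them.

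Among the ligands, *Areg*, *Btc* and *Nrg1* stood apart in gene trap replicate 5. There *Areg* was 691.0, and 15.2 to 70.2 in the rest of its group, *Btc* was 325.7, and 228.5 to 256.6 in the rest, *Nrg1* was 1065, and 241.5 to 479.6 in the rest, and so did the summed hormone-sensing markers (9610 against 4639 to 5117). *Hbegf* stood apart from the rest of its group in gene trap replicate 4 (313.4 against 207.6 to 232.0), while wildtype replicate 4 had 434.4. The summed milk protein genes stood apart from that group in the same tumor (191264 against 137198 to 145626), while wildtype replicate 2 had 193882. Of the 5 milk protein genes, 1 was highest in gene trap replicate 4, and it held 180601 of that sum.

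The summed fibroblast markers stood apart in gene trap replicate 1 (121332 against 52590 to 64158), the tumor with the lowest *Tgfa*. The summed lymphocyte markers stood apart in gene trap replicate 3 (296.8 against 51.8 to 95.9), and the summed skeletal muscle markers in wildtype replicate 5 (10218 against 673.4 to 2950). Their part in the values of the members was not tested.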

How the results depend on the processing

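Under all 19 alternatives, 0 of 9 members had an adjusted p under 0.05 in limma, and *Erbb2*, *Tgfa*, *Btc*, *Resf1* and the 12 named pathway genes kept their direction (*Epgn* was tested under 18 of them). The other members lay near 0 and changed sign when single tumors were left out, with log2 fold changes of -0.03 to 0.11 for *Egfr*, -0.01 to 0.11 for *Erbb3*, -0.37 to 0.03 for *Erbb4*, -0.83 to 0.52 for *Areg*, -0.25 to 0.17 for *Hbegf* and -0.29 to 0.24 for *Nrg1*. *Nrg1* was also -0.01 after rescaling to equal column totals and -0.02 with weights per tumor. An unadjusted p under 0.05 was reached by *Tgfa* with 3 single tumors left out (lowest 0.0273) and with weights (0.0385), by *Erbb2* with 1 (0.0475) and by *Btc* with 1 (0.0474). The median of the members was -0.224 without gene trap replicate 5 and 0.101 without wildtype replicate 4. *Resf1* lay between -0.28 and -0.17 when single tumors were left out. Its unadjusted p in limma was then 0.01 to 0.0781, and under 0.05 in 4 of the 10 fits. After rescaling to equal column totals its unadjusted p in limma was 0.075.

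The ratio of the highest to the lowest member per kilobase was 16.9 with the longest transcript and 85.7 with the median length of all transcripts, which follows from the short median length of *Egfr*. The SD of *Areg* lay between 0.77 and 1.74 when single tumors were left out. No pair of members passed an adjusted p of 0.05 under any alternative, while 1 to 5 pairs had an unadjusted p under 0.05, fewest without gene trap replicate 5. Equal replicate numbers did not pair the tumors (mean correlation of deviations -0.00977 over 5 pairs, from -0.16 to 0.15). With a replicate block in limma, 0 members were called, 2 pathway genes had an unadjusted p under 0.05 and the log2 fold change of *Resf1* stayed at -0.22. The unknown depth limits what can be said of low genes such as *Areg*, and 5 tumors per group leave the intervals of *Areg*, *Nrg1*, *Hbegf* and *Erbb4* wide.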
